A study of Mus musculus with 8 samples.

Results

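Regulatory T cells (Treg) recovered from the ischemic brain were set against the whole tissue of an ischemic brain slice, 1 array each. The comparison used 2 of the 8 arrays of the study, chosen by their labels. The Treg library was made from CD4+ regulatory T cells of wild type (WT) mice, taken from the ischemic brain at day 14 after stroke onset. The slice library was whole tissue of WT mice at the same day, from slice 3 on the ischemic side. RNA extraction differed: the tissue went into QIAzol and the CD4+ T cells into TRIzol LS, and both RNAs were then labelled with a low-input amplification kit and a one-colour spike-in. On the slide, row 1 carried the T cell arrays and row 2 those of tissue. Kind of sample, extraction and slide row therefore cannot be told apart in any value given here. The labels do not say how the cells were sorted, how stroke was induced, or how many mice went into a library. The other 6 arrays are given beside the pair where a gene's order matters. They are the other CD4+ T cells (nonTreg) of the WT ischemic brain at day 14, Treg and nonTreg of the spleen of intact mice, and slices of WT sham, DEREG sham and DEREG ischemic brains at day 14. DEREG mice carry a diphtheria toxin receptor transgene under Foxp3 control, and toxin treatment is not described in the labels used here.

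Treg are CD4+ T cells that restrain other immune cells and depend on the transcription factor Foxp3. In injured tissue they take on a further program that includes the alarmin receptor ST2 (Il1rl1) and the growth factor amphiregulin (Areg), a ligand of the epidermal growth factor receptor. A brain slice after stroke holds neurons, astrocytes, oligodendrocytes, vessels, microglia, scar-forming fibroblasts and blood-borne leukocytes. In such bulk RNA, fewer cells of a type and less RNA per cell cannot be told apart.

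Levels are log2 processed intensities relative to each array's scaling point, the 75th percentile over probes well above background on both arrays of the pair, and the other 6 arrays were scaled on the same probes. A difference is the level in the Treg library minus that in the slice, and a difference of 1 is 2-fold. Of 56605 probes, 51.9% were well above background in the Treg library and 65.1% on the slice. The other 6 arrays lay between 47.6% and 64.7%. No spot was saturated. The median SD between the spots of a repeated probe was 0.039 (log2) on both arrays, a technical error that says nothing of the spread between mice. With 1 array a group there is no replicate and no test, so every count below describes these libraries. Where a probe was well above background on 1 array of the pair, its difference is a lower bound on the size, written "at least" or "bound"; list medians take bounds at their size.

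The labels were checked first against defining markers. All 20 T cell markers were well above background in the Treg library, and Foxp3 had a level of 2.36 there. Foxp3 was not well above background on the slice (-9.06) or on any other tissue array. On the other T cell arrays it was 3.39 in spleen Treg and -0.04 in brain nonTreg, and it was not well above background in spleen nonTreg. Brain Treg thus lay 2.40 log2 units above brain nonTreg for this defining gene, and the nonTreg library of the same tissue was not free of its transcript. All 20 neuronal and all 15 astrocyte markers were well above background on the slice.

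The tissue side of the comparison was the larger. Of 22911 genes with a probe, 16933 were well above background on at least 1 array of the pair: 12960 on both, 401 in the Treg library alone and 3572 on the slice alone. A difference of at least 2-fold was seen upward in 3236 genes (19.1%) and downward in 6145 (36.3%), with a median over all genes compared of -0.29. The counts of each list below are to be read beside these shares. Among genes measured on both arrays the split was closer, with 2878 higher (22.2%), 3601 lower (27.8%) and a median of 0.03. Of all genes compared, 159 were higher in the Treg library by 5 log2 units or more and 1003 lower by as much; of those measured on both arrays, 109 and 375. This split moved with the scaling point. Higher genes were 34.5% of all 2-fold differences in the main setting, 45.6% (4407 against 5261) with the percentile taken over all probes, 48.6% (4787 against 5057) with spike-in probes, and 19.0% (1864 against 7956) with housekeeping genes. These settings shifted the median of all genes by 0.34, 0.44 and -0.58, so the sign of a difference smaller than these shifts depends on the setting.

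**Figure D1:**
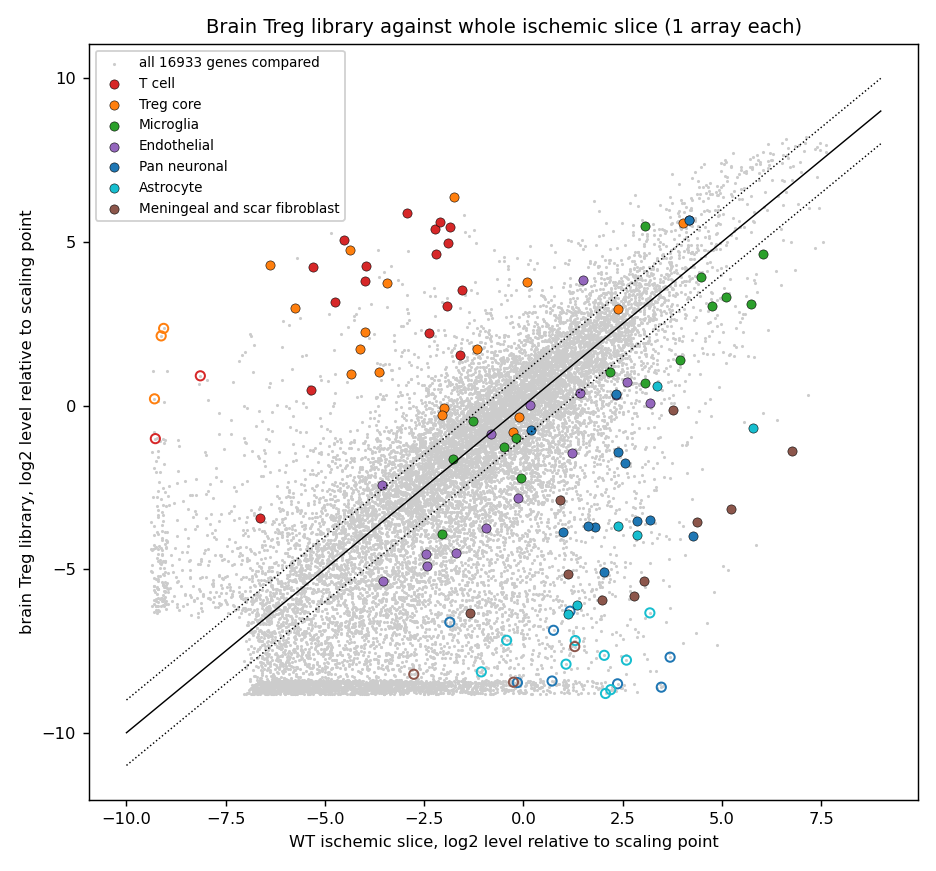
Level of each of the 16933 genes compared on the WT ischemic slice (x axis) and in the brain Treg library (y axis), log2 relative to the scaling point, 1 array each. Coloured points are marker list members, open where 1 of the arrays was not well above background; the solid line is equality and the dotted lines 2-fold. Most T cell and Treg markers lie above the lines, astrocyte and fibroblast markers below, and microglial markers near them.

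The 12 genes with the highest differences measured on both arrays were mostly T cell genes. Izumo1r, the folate receptor 4 of Treg, had a level of 4.30 in brain Treg and -6.39 on the slice, a difference of 10.69; another probe of it gave 5.69. Gata3, a transcription factor of type 2 helper cells and of tissue Treg, stood at 4.50 against -5.71, a difference of 10.20. Icos, a costimulatory receptor of activated T cells, stood at 5.29 against -4.84, 1119-fold higher. After these came Cd2 (9.58), Cd3g (9.52), the GITR receptor gene Tnfrsf18 (9.13), the chemokine Ccl1 (8.99), Cd3d (8.81), the IL-2 receptor chain Il2ra (8.73), Ifng (8.63), the inducible heat shock gene Hspa1b (8.42) and the peptidoglycan-binding amidase gene Pglyrp2 (8.38). Among genes not well above background on the slice, the largest bounds were Foxp3 (at least 9.44, 696-fold), the inhibitory receptor Ctla4 (at least 9.21), the lectin-like receptor Klrg1 (at least 9.06), P2ry10 (at least 8.64), Sit1 (at least 8.63) and Cd96 (at least 8.63). On the slices of DEREG mice after stroke these T cell genes were dim as well, with Cd3g at -2.34, Icos at -2.65 and Gata3 at -2.80, each above its level on the WT slice.

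At the other end stood genes of neurons and matrix. Stmn4, a tubulin-binding stathmin, had a level of -5.71 in brain Treg and 4.80 on the slice, 1462-fold lower in the cells. On the other arrays it ran from -5.88 to -4.17 in T cells and from 4.45 to 5.72 in tissue, so the T cell and the tissue arrays did not overlap. The imprinted non-coding RNA Meg3 (-10.18), the axonal motor Kif5a (-10.13), the microtubule protein tau (Mapt, -9.88), Snrpn (-9.16), the kinase Camk2a (-8.85), Pcsk1n (-8.63), the striatal phosphoprotein Ppp1r1b (-8.62), the collagen Col3a1 (-8.60), Adgrb2 (-8.60) and Trnp1 (-8.60) were also among the 12 lowest. Of the genes below background in the Treg library, Sncb (-11.36), Dnm1 (-11.10), Hpca (-10.82), Plekhb1 (-10.50), Stmn3 (-10.16) and Camkv (-10.12) had the largest bounds, each lower by at least that much. The probe of Sncb, the beta-synuclein gene, read 4.89 on this slice but -4.30 on the DEREG ischemic slice and -0.87 and -0.86 on the sham slices, so its bound rests on a value that no other tissue array came near; its second probe gave a bound of -7.34. A second probe of Dnm1, the vesicle-fission dynamin, was measured on both arrays at -4.76.

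T cell identity genes had the highest median of the 64 lists. All 20 T cell markers were at least 2-fold higher in the Treg library, with a median of 7.08 against -0.29 over all genes. Cd3e, a chain of the T cell receptor complex, had levels of 4.97 in brain Treg and -1.89 on the slice (116-fold). The other T cell arrays read 5.21, 5.37 and 5.53 and the other tissue arrays -0.63, -2.22 and -2.15. Cd4 stood at 3.04 against -1.92, a smaller difference of 4.96, and its sham slices read -0.31 and -0.58. Thy1 (1.52) had the smallest difference of the list; it is also a neuronal surface gene and stands in the neuronal list too. Bcl11b (3.13) is likewise a marker of striatal neurons.

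The Treg core list held 17 members of 20 past 2-fold on the higher side and none on the lower, with a median of 5.57. Il2ra, the alpha chain of the IL-2 receptor, had a level of 2.99 in brain Treg, -5.74 on the WT slice and -3.97 on the DEREG ischemic slice, and was not well above background on the sham slices. Tnfrsf4, the OX40 receptor, was 277-fold higher (8.11), and Ikzf2, the Helios transcription factor, 75.7-fold (6.24). The 3 members within 2-fold were the semaphorin receptor Nrp1 (0.58), the ectonucleotidase Entpd1 (-0.26) and Gpr83 (-0.55). Another measured probe of Nrp1 gave 1.88. Gpr83 had a level of 3.29 in spleen Treg, -0.82 in brain Treg and -0.27 on the slice, and 2.08 and 2.19 on the sham slices.

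Genes of the tissue Treg program were higher in the cells as well. Its 19 genes had a median difference of 6.95, with 16 at least 2-fold higher and 1 lower. The list's median level was 2.18 in brain Treg, 1.43 in brain nonTreg and -1.82 in spleen Treg, against -3.16 on the slice. All 19 genes were well above background in both brain T cell libraries, so they were not confined to the Treg library. Areg had a level of 1.04 in brain Treg and -0.91 in brain nonTreg, and was not well above background on any of the other 6 arrays, whole ischemic slice included. Its difference was at least 8.13 (280-fold). Il1rl1, which encodes ST2, stood at 3.10 in brain Treg and 1.43 in brain nonTreg; spleen Treg read -1.96. The ischemic slices read -3.85 and -3.72, a difference of 6.95 within the pair. Ccr8, a chemokine receptor of tissue Treg, was at least 232-fold higher (7.86), and the anti-inflammatory cytokine gene Il10 at least 214-fold (7.74). The transcription factor Pparg (2.33) and Batf (3.67) had smaller differences, and the prostaglandin synthase Hpgds was lower (-2.05). A 2-fold difference was not reached by Dgat2 (0.39) or by Penk (0.85), the enkephalin precursor gene. Penk is expressed by striatal neurons as well as by Treg: its level was 2.96 in brain Treg and 2.11 on the slice, and 5.04 and 4.79 on the sham slices.

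**Figure D2:**
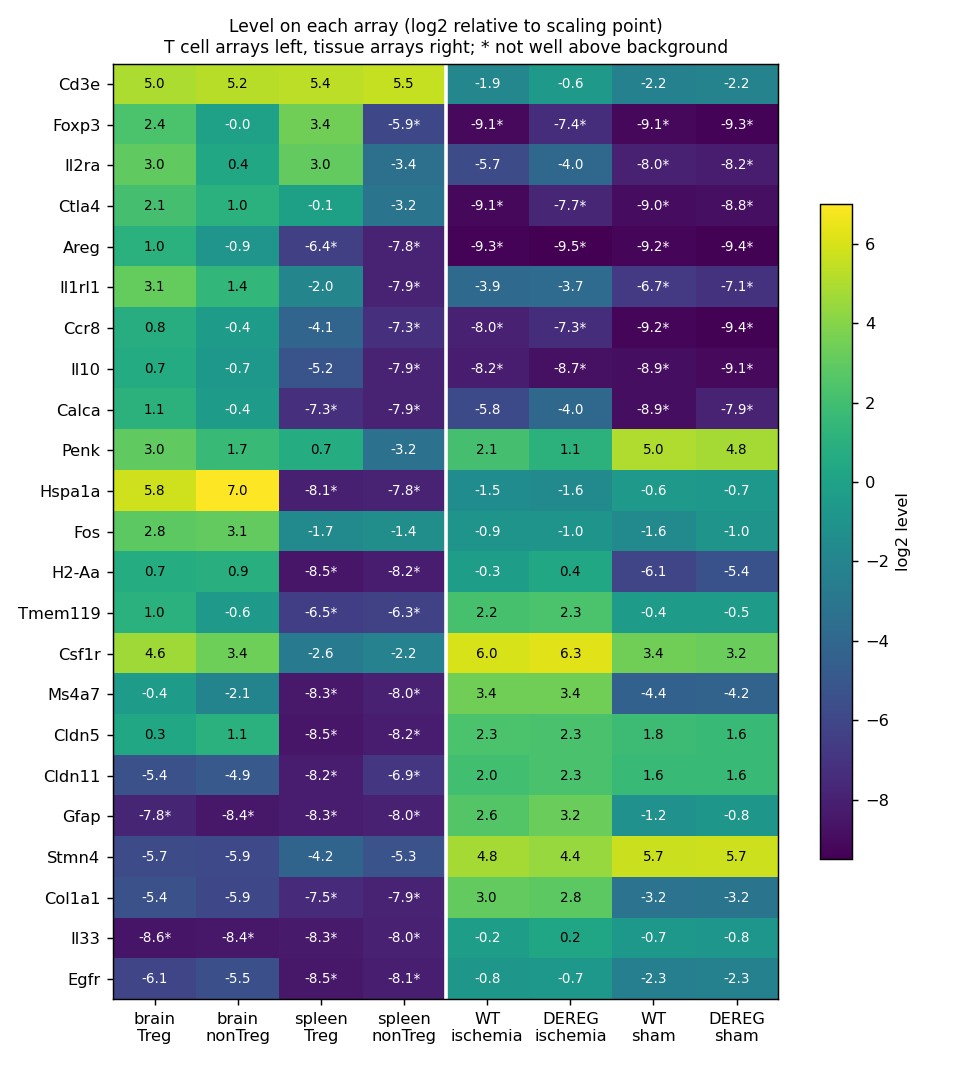
Level of 23 genes on each of the 8 arrays, log2 relative to the scaling point, with T cell arrays left of the white line and tissue arrays right; an asterisk marks values not well above background. Foxp3, Areg, Ccr8 and Il10 were not well above background on any tissue array, while Csf1r, Tmem119 and Cldn5 were well above background in both brain T cell libraries.

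Most genes that carry the T cell receptor signal were higher. Of 20 signalling genes 18 were at least 2-fold higher and none lower, with a median of 3.06. The adaptor Sla2 (6.15), Grap2 (at least 6.07), the phosphatase Ptpn22 (5.96) and the kinase Prkcq (4.77) led, while the exchange factor Vav1 (0.41) and the lipid kinase Dgkz (-0.66) were within 2-fold. Among checkpoint and activation genes, 10 of 15 were higher and 3 lower, with a median of 4.06. Ctla4, the early activation marker Cd69 (7.68), Tigit (at least 7.29) and Pdcd1, which encodes PD-1 (5.72), stood highest. Lag3 (-1.49), Cd38 (-1.31) and Havcr2, which encodes TIM-3 (-1.05), were lower; these 3 are also expressed by myeloid cells. The TNF receptor family was split (median 1.71): Tnfrsf18, Tnfrsf4, the 4-1BB receptor Tnfrsf9 (7.85) and Cd27 (at least 6.07) were higher, and the neurotrophin receptor Ngfr (-4.55), the lymphotoxin receptor Ltbr (-3.77) and Tnfrsf21 (-3.43) lower, in all 10 higher and 5 lower of 16.

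Cytokine and helper subset genes were higher in the sorted cells across subsets. All 7 Th2 genes compared, 14 of 15 Th1 and cytotoxic genes and 10 of 11 Th17 genes passed 2-fold, with medians of 6.95, 5.06 and 2.78. The Th2 and tissue Treg lists share Il1rl1, the median of each, and Gata3, the highest of each, so they are not separate results. Ifng had a level of 2.58 in brain Treg and 4.50 in brain nonTreg, against -6.05 on the slice (396-fold higher in Treg). Il18r1, a receptor chain for IL-18, was 313-fold higher (8.29), Fasl at least 6.89 and Stat4 6.48. Il17a had a level of 1.04 in brain Treg and 1.48 in brain nonTreg and was not well above background on the other 6 arrays, a bound of at least 8.13. Il4 (at least 7.04), Il5 (at least 4.74) and Csf2 (at least 6.04) also lay below background on the slice. The receptor Il1r1 was the lower Th17 member (-2.76), and Il12rb2 (0.47), a chain of the IL-12 receptor, was within 2-fold. Interleukin receptors as a whole had 14 of 27 higher and 5 lower (median 1.03, or 0.45 with housekeeping scaling), with Osmr, the oncostatin M receptor, lowest (-5.12).

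Receptors for chemokines sat mainly with the cells and the ligands mainly with the tissue. Of 17 receptors compared 12 were higher in Treg by 2-fold or more and 4 lower (median 3.91), and of 30 ligands 7 were higher and 18 lower (median -1.74). Ccr8, Ccr4 (at least 7.24), Ccr6 (7.03), Cxcr6 (6.99) and Cxcr3 (6.75) led the receptors. Ccr6 stood at 2.75 in brain Treg and -4.28 on the slice. The lower receptors were the scavenging receptors Ackr3 (-3.11) and Ackr1 (-2.75), the neutrophil receptor Cxcr2 (bound -2.80) and the microglial receptor Cx3cr1 (-1.69). Among ligands, Cxcl14 (bound -8.17), Ccl21a (bound -6.82), Cxcl12 (-5.56) and Ccl19 (-5.38) belonged to the tissue. Ccl1, the ligand of CCR8, Xcl1 (5.48), Ccl20 (at least 3.10) and Ccl5 (3.09) were higher in the cells. Ccl1 had a level of 2.12 in brain Treg and 1.67 in brain nonTreg, -6.87 on the slice, and was not well above background on the sham slices.

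Genes of naive and recirculating T cells were also higher in brain Treg than in the slice, in 9 of 14 members (median 1.83), with 1 lower. The homing receptor Ccr7 (5.85) and the transcription factor Tcf7 (4.84) were among the leading members. The insulin-like growth factor binding protein Igfbp4 was lower (-2.91). Of 16 leukocyte integrin and adhesion genes 9 were higher and 4 lower. The integrin chains Itgb7 (6.60), Itgae (5.31) and Itgal (4.75) led, while Vcam1, an endothelial partner of the integrin that contains Itga4, was lower (-3.09). The list median of 1.51 became 0.94 with housekeeping scaling.

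Markers of other leukocytes were present in the Treg library to very different extents. Of 13 CD8 T and NK cell markers compared, 10 were at least 2-fold higher than on the slice and 1 lower (median 2.55), led by Nkg7 (5.97), Xcl1 and Cd8b1 (levels of 1.31 and -3.69); 13 of the 14 with a probe were well above background. Cd8a had a level of -3.17 in brain Treg, -1.50 in brain nonTreg and -6.09 on the slice, while both spleen libraries were at background. Klrb1c was listed lower (-4.68), but a second probe gave 1.53. For B cells, 6 of 10 were higher and 3 lower (median 1.56, or 0.98 with housekeeping scaling), and 9 of 12 were well above background in the Treg library. Ms4a1, which encodes CD20, had a level of -3.82 in brain Treg and was not well above background on the slice. Cd79a was not well above background on either array. Summed over the list, the B cell level was 0.81 in brain Treg and -0.04 on the slice, and that of CD8 T and NK cells 3.99 and 0.72. Spleen Treg and nonTreg read 0.89 and -1.79 for B cells, and 1.42 and 2.52 for CD8 T and NK cells. The B cell sum thus did not set brain Treg apart from spleen Treg, but other measures of the list did. In spleen Treg 5 of the 12 B cell markers were well above background, against 9 in brain Treg. The median B cell level was -6.96 in spleen Treg and -4.71 in brain Treg. Of 8 plasma cell markers 4 were higher and 1 lower (median 1.06, or 0.48 with housekeeping scaling), led by Irf4 (7.09) and Prdm1 (2.75), which activated T cells also express. The part of these cells in the other differences was not tested.

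Microglial and macrophage genes were lower than in the slice by far less than neuronal ones. All 15 microglial markers were well above background in the Treg library, in the nonTreg library of the same brains and on every tissue array, but 6 of 15 in each spleen library. Their median level was 1.02 in brain Treg and -0.47 in brain nonTreg, against -7.11 for spleen Treg. It was 3.05 on the WT ischemic slice and -0.37 on the WT sham slice. Within the pair the list had a median difference of -1.39, with 9 of 15 lower, 1 higher and 5 within 2-fold. Csf1r, the receptor that sustains microglia, had a level of 4.64 in brain Treg and 3.37 in brain nonTreg, -2.65 and -2.20 in spleen T cells, and 6.03 on the slice, a 2.62-fold difference. Tmem119 stood at 1.02 against 2.18 and P2ry12 at -1.62 against -1.78, both genes of resident microglia. Trem2, a receptor of lipid-clearing microglia, was lower (-2.63), and Selplg, which T cells express as well, was the higher member (2.42). The levels of Csf1r and Tmem119 in brain Treg thus exceeded those on the WT sham slice (3.40 and -0.37). Summed over the list, the level was 6.91 in brain Treg against 7.91 on the slice. The sum was also 6.13 in spleen Treg and 6.17 in spleen nonTreg, so it does not measure microglial RNA alone.

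Of 15 macrophage and monocyte markers 11 were lower and 2 higher (median -2.08). Lyz2 (-3.94), Ms4a7 (-3.79) and Cd68 (-3.79) led, and the monocyte chemokine receptor Ccr2 (3.91) and Ly6c2 (1.72) went the other way. Mrc1 was near 0 (-0.30), with levels of -1.72 and -1.42. Neutrophil markers were mostly lower, 7 of 9, with S100a9 at -1.35 against 2.16 on the slice; their median of -2.80 became -0.89 with another background correction (normexp). The erythroid median of -2.62 became -0.50 in that setting, and the mast cell median moved from -1.47 to -0.43. Haemoglobin was lower, as for Hba-a1 (-3.59). Dendritic cell markers had no side, with 4 of 10 higher and 4 lower, beside 19.1% and 36.3% over all genes compared. Their median of 0.12 was -0.46 with housekeeping scaling. Their chemokine receptor Ccr7, which T cells share, was highest and the actin bundler Fscn1 lowest (-3.72).

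MHC class II genes were as high in the Treg library as in the slice or somewhat higher. Past 2-fold were 6 of 11 on the higher side and 1 on the lower, with a median of 1.03 that was 0.45 with housekeeping scaling. Cd74, the invariant chain, had levels of 3.39 in brain Treg, 3.53 in brain nonTreg and 2.20 on the slice, against -0.48 and -2.96 in spleen T cells. H2-Aa stood at 0.73 in brain Treg, 0.89 in brain nonTreg and -0.30 on the slice, and was not well above background in spleen T cells. H2-DMb1 was the lower member (-1.24). All 11 genes were well above background in the Treg library, beside all 15 microglial markers and 9 of 12 B cell markers, whose part in this result was not tested. MHC class I genes, which nearly all cells carry, were higher in 10 of 13 (median 1.34, or 0.76 with housekeeping scaling), led by the regulator Nlrc5 (2.88) and the peptide transporter Tap1 (2.31).

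Vascular genes were lower, unevenly. All 15 endothelial markers were well above background in brain Treg, with a median level of -1.44 there, -0.93 in brain nonTreg, -8.18 and -7.30 in spleen T cells and -0.14 on the slice. Of these, 11 were at least 2-fold lower and 2 higher (median -1.99). Cldn5, the tight junction claudin of brain endothelium, stood at 0.33 in brain Treg, 1.07 in brain nonTreg and 2.32 on the slice, and was not well above background in spleen T cells. The transporter genes Mfsd2a (-0.06) and Abcb1a (-0.15) were near 0. Ly6a (2.35) and Pecam1 (1.12), which lymphocytes also express, were higher. Pericyte and smooth muscle markers went lower by more (median -3.33, 10 of 12), among them the PDGF receptor Pdgfrb (bound -6.90) and the matrix protein Vtn (-6.22). Acta2 was listed higher (2.40), but 2 other probes gave -1.21 and -1.73.

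Neuronal and glial markers were low in the sorted library. Of 20 pan-neuronal markers 18 were at least 2-fold lower and 1 (Thy1) higher, with a median of -6.36. The synaptic calcium sensor Syt1 was at least 983-fold lower and Rbfox3, which encodes the nuclear marker NeuN, at least 458-fold. Snap25 (-1.96) and Nefh (-0.91) were lower by less. The Snap25 probe used was also well above background in both spleen libraries (1.45 and 1.57), above its brain Treg level of 0.37. A second Snap25 probe was not well above background in brain Treg and gave a bound of -4.48, so the smaller difference belongs to 1 probe. All 11 excitatory neuron markers compared were lower (median -4.47), and 13 of 14 interneuron markers (median -4.87), among them the neuropeptide genes Cck (bound -9.66) and Sst (bound -9.33). Striatal projection neuron markers had a median of -5.52, 9 of 14 lower, but a median of -0.09 over the 7 members measured on both arrays. Those 7 include Penk, Bcl11b (3.13), Foxp1 (-0.09) and the adenosine receptor Adora2a (2.24), genes that T cells use too.

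Astrocyte markers were lower in all 15, with a median of -7.49, in the main setting the lowest of the brain cell lists other than fibroblasts. S100b was at least 735-fold lower, Gfap, the intermediate filament of reactive astrocytes, at least 535-fold and the glutamate transporter Slc1a2 at least 371-fold. Glul had the smallest difference (-2.76). Gfap was not well above background on any T cell array and stood at 2.59 and 3.21 on the ischemic slices and -1.18 and -0.77 on the sham slices. Oligodendrocyte markers were lower in 13 of 15 (median -4.19) and precursors in 11 of 12 (median -4.56), with Cldn11 (-7.38) and Bcas1 (-7.69) among the lowest. Mbp, the myelin basic protein gene, was listed higher (1.98), but its other probes gave -8.11 and -10.08. The probe that read higher was also well above background in spleen T cells (2.56 and 2.86).

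**Figure D3:**
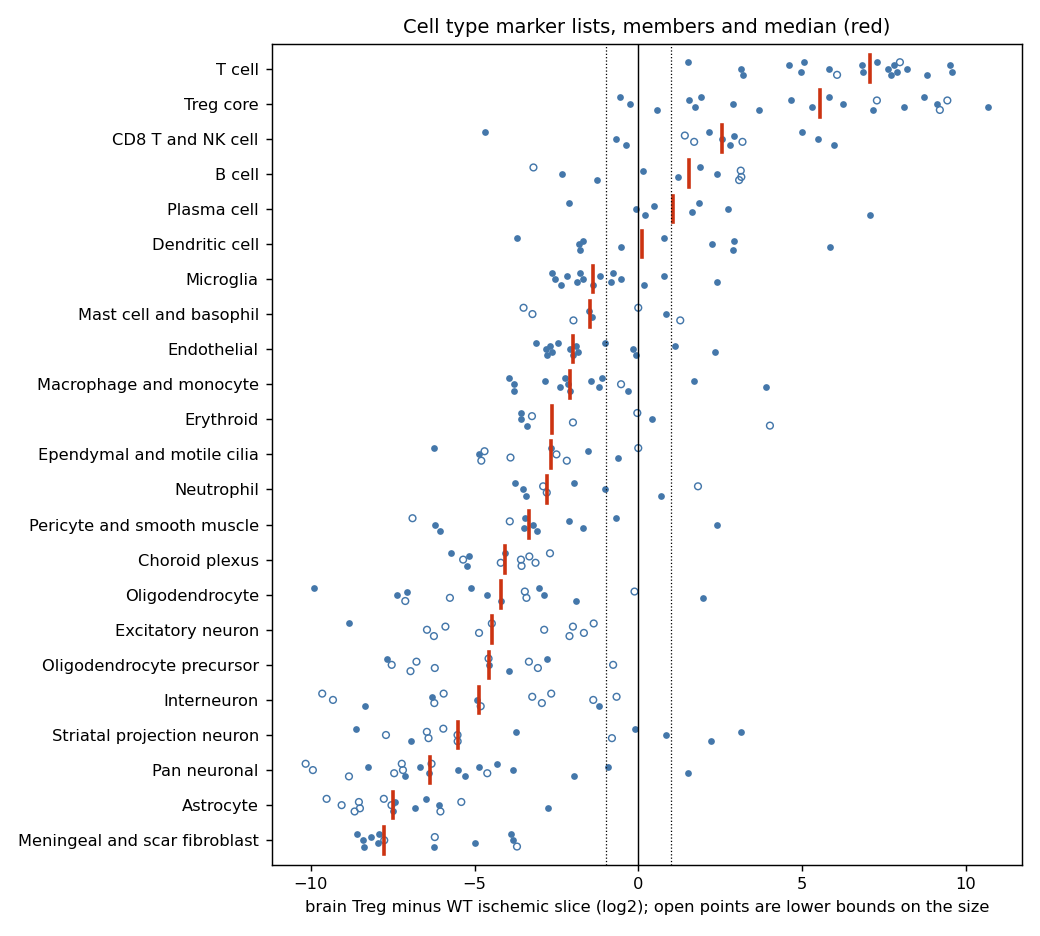
Difference of each member of the 23 cell type marker lists (log2, brain Treg minus WT ischemic slice, 1 array each), ordered by list median (red bar); open points are lower bounds on the size and dotted lines mark 2-fold. Medians run from 7.08 for T cell markers to -7.76 for meningeal and scar fibroblast markers.

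In the main setting fibroblast markers had the lowest median of the 64 lists, and matrix genes were low with them. With normexp correction the astrocyte median was lower than that of fibroblasts. All 13 fibroblast markers were lower (median -7.76) and 16 of 18 collagen and matrix genes (median -6.52). Col1a1, the main fibrillar collagen chain, had a level of -5.38 in brain Treg and 3.04 on the slice (343-fold lower), and -3.24 and -3.15 on the sham slices. Ptgds, a prostaglandin synthase of the meninges, stood at -1.38 in brain Treg against 6.77. The proteoglycans of the brain matrix Bcan (bound -9.98) and Ncan (bound -8.94) had the lowest values. Hapln1 (-0.49) was within 2-fold, and the bound for Tnc (-0.13) leaves its size unknown. Matrix proteases and their inhibitors were lower in 16 of 20 (median -3.76), among them Timp4 (bound -6.30), Mmp3 (-6.13) and Mmp2 (bound -5.48), and Mmp25, a leukocyte protease, was higher (2.33). Ependymal and cilia markers were lower in 9 of 11 (median -2.66), Rarres2 by most (-6.25), and choroid plexus markers in all 11 (median -4.08). Their summed level was 4.89 on this slice and 2.61 to 2.73 on the other tissue arrays, and Ttr, the transthyretin gene, stood at 4.12 here and between -3.97 and -1.71 there, so this slice stood above the other tissue arrays for choroid plexus genes.

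Phagocyte and complement genes of the lesion were lower in the Treg library than on the slice, but present in it. All 15 disease-associated phagocyte genes and 15 of 16 complement genes were well above background there. The phagocyte list had a median level of 2.43 in brain Treg, 4.97 on the slice and 0.93 on the WT sham slice, against -3.60 for spleen Treg. All 15 disease-associated phagocyte genes were lower (median -2.47), led by Gpnmb (-6.18), the lipase Lpl (-4.81), Spp1, which encodes osteopontin (-4.32), and Cd63 (-4.14). Gpnmb stood at 4.11 on the WT ischemic slice and was not well above background on the WT sham slice. Apoe had the high level of 6.04 in brain Treg and -1.32 in spleen Treg, against 7.45 on the slice (-1.41). Of 16 complement genes 15 were lower (median -3.16), with Serping1 (-7.43) and C1s1 (-5.65) lowest. C1qa, a microglial product, stood at 2.37 against 5.36 (-2.99) and was not well above background in spleen T cells. Cd55, a surface inhibitor of complement that T cells carry, was the 1 higher gene (2.73). Toll-like receptor and inflammasome genes were mixed (2 of 18 higher, 9 lower, median -0.73), beside 19.1% higher and 36.3% lower over all genes compared. Casp1 (1.99) and Il1b (1.91) were higher and Il18 (-2.90) lower. Metallothionein and iron genes were lower in 8 of 11 (median -2.80), among them the haem oxygenase Hmox1 (-4.55) and Mt3 (-4.09).

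Growth factors were largely tissue transcripts. Of 25 compared 18 were lower and 2 higher (median -2.95). Igf1, a product of lesion phagocytes, had a level of -1.71 in brain Treg and 3.12 on the slice (-4.83), and -3.84 and -3.81 on the sham slices. Igf2 (-7.09), Fgf1 (-6.42) and pleiotrophin (Ptn, -6.20) were lowest. The higher members were 2 cytokines of the IL-6 family, Osm (2.33) and Lif (at least 2.11). Osm stood at 1.14 against -1.20. Tgfb1 (0.06) was near 0, with levels of 0.29 and 0.23, while the sham slices read -4.01 and -3.64. In the EGF family, Areg and Nrg4 (1.76) were higher and 6 of 10 lower (median -2.34, or -0.53 with normexp), Egfr itself by 5.31.

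Neuromodulator genes followed the tissue, with exceptions that T cells share. Of 18 neuropeptide and opioid genes 15 were lower and none higher at 2-fold (median -3.53); Oprl1 was among them (bound -6.25), but a second probe gave 1.92. Among serotonin genes 8 of 10 compared were lower (median -2.73), and the other 10 with a probe were above background on neither array. Htr7, a serotonin receptor, was not well above background in any T cell library and stood at -3.49 on the slice, a bound of -2.75. Htr2b was lower by more (-5.76), and Tph1, an enzyme of serotonin synthesis, was the 1 higher gene, dim in brain Treg (-5.08) and not well above background on the other 7 arrays. Genes of extracellular ATP and adenosine split 5 higher and 6 lower of 15 (median -0.38, or 0.06 with spike-in scaling). The adenosine-producing ectoenzyme Nt5e (4.67) and Adora2a were higher, and Adora1 (bound -7.45) and Entpd2 (bound -6.88) were tissue genes. P2ry10 also counts among the higher genes, but it is listed by its family name and not as a known nucleotide receptor. Synaptic vesicle genes were lower in 19 of 20 (median -5.11) and glutamate and GABA receptors in all 20 (median -5.72). The exception, Sv2c, was at least 6.64 higher, but a second probe gave 0.42. Among voltage-gated and related ion channels 17 of 20 were lower (median -4.76), and the potassium channels of lymphocytes Kcnn4 (4.53) and Kcna3 (3.28) were higher; over the 5 members measured on both arrays the median was 0.53, which is the value of Scn8a, whose 3 other probes gave bounds of -2.68, -4.35 and -6.09.

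Cell division genes were higher in the Treg library than in the slice. All 16 proliferation genes and all 18 DNA replication genes were at least 2-fold higher, with medians of 2.36 and 2.55. Mki67, the Ki-67 gene, had levels of 2.73 in brain Treg, 2.08 in brain nonTreg, -1.08 and -1.46 in spleen T cells, -0.31 on the slice, and -5.39 and -5.47 on the sham slices. Top2a (3.12), Kif11 (3.08), Mcm5 (3.66) and Tyms (3.48) led the lists. The median level of the proliferation list was 0.39 in brain Treg and -0.52 in brain nonTreg, against -3.19 for spleen Treg and -2.10 on the slice.

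Ribosomal protein genes were higher in the cells and energy genes mostly near 0. All 22 cytosolic ribosomal protein genes were at least 2-fold higher, in a narrow range from 1.25 to 2.31 (median 1.70, or 0.68 with quantile normalization). Rpl5 (2.31) and Rplp0 (2.16) stood highest; a second probe of Rps24 went the other way (-2.81). The list's median level was 6.57 to 7.01 on the 4 T cell arrays and 4.31 to 4.95 on the 4 tissue arrays. None of 20 respiratory chain genes passed 2-fold, with a median of 0.11 that was -0.47 with housekeeping scaling and a range from -0.51 (Ndufv1) to 0.90 (Uqcrh). Of 21 glycolysis genes 2 were higher and 6 lower (median -0.65), beside 19.1% and 36.3% over all genes compared. The neuronal enolase Eno2 (-6.68), the astrocytic aldolase Aldoc (-6.47) and the muscle-type Pfkm (-3.92) were lower. Ldha (1.21) and Pfkp (1.12) were higher, and Gapdh (0.02) and Pkm (-0.07) near 0. Interferon response genes were under 2-fold in 14 of 19 (median 0.15, or -0.43 with housekeeping scaling); Isg20 (2.51) was among the 2 higher and Oasl2 (-1.90) among the 3 lower. Their median level was 0.76 on the slice and -3.53 on the WT sham slice. Of 20 housekeeping genes 3 were higher and 2 lower (median 0.58). Apoptosis genes had 6 higher and 2 lower of 16 (median 0.35, or -0.23 with housekeeping scaling), with Pmaip1 (4.33) and Apaf1 (2.99) higher and Bax lower (-1.51).

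**Figure D4:**
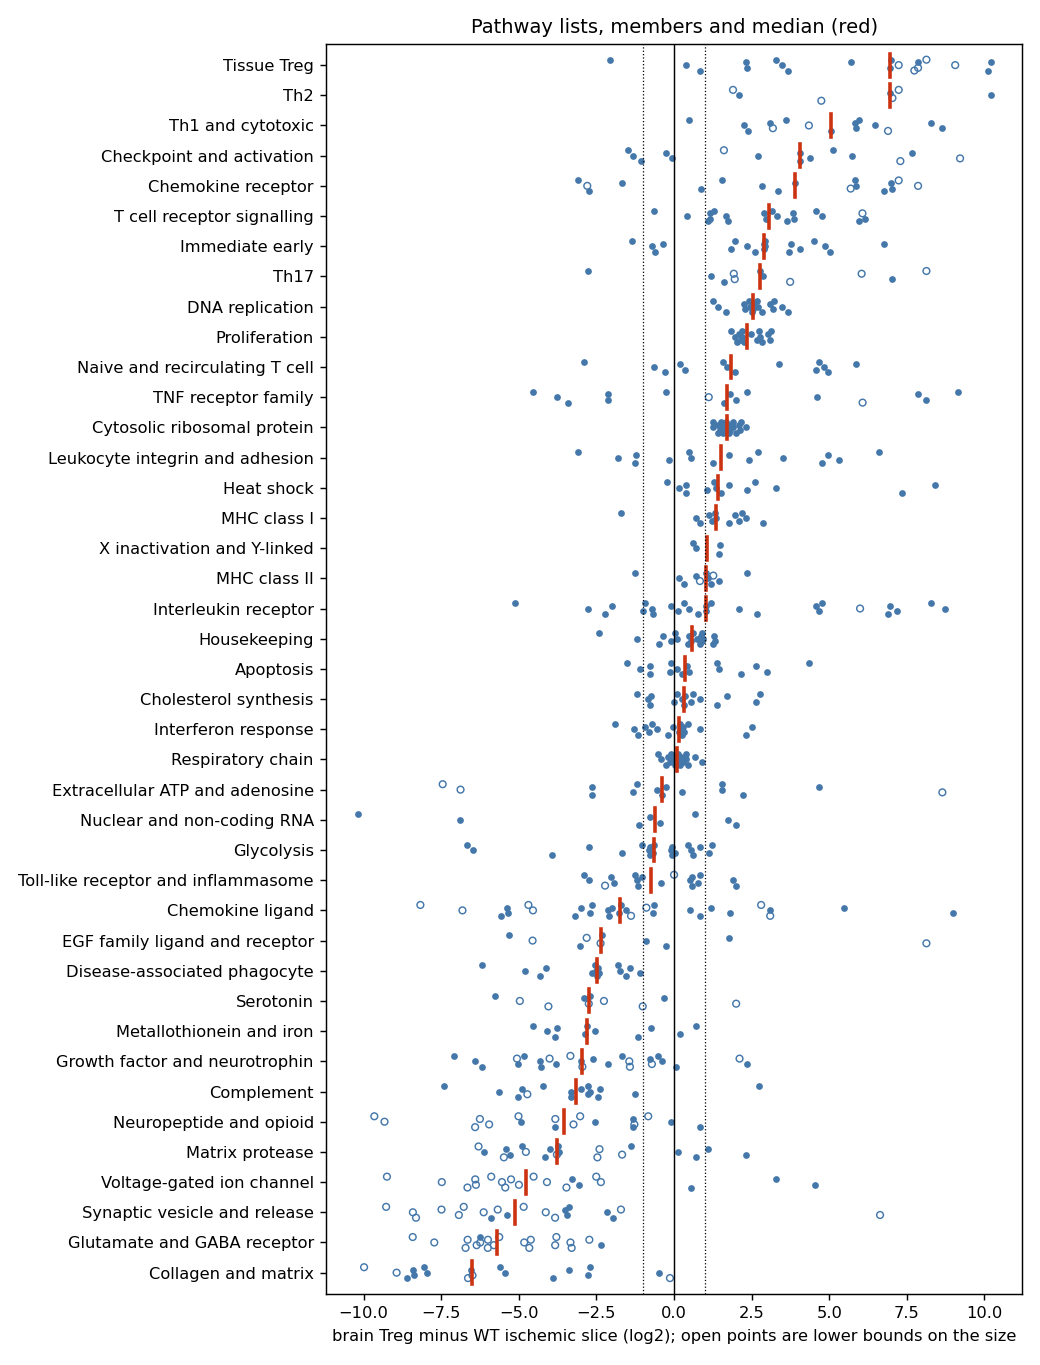
Difference of each member of the 41 pathway lists (log2, brain Treg minus WT ischemic slice, 1 array each), ordered by list median (red bar); open points are lower bounds on the size and dotted lines mark 2-fold. Tissue Treg and Th2 genes, whose lists share Il1rl1 and Gata3, have medians of 6.95, respiratory chain genes 0.11, and collagen and matrix genes -6.52.

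The inducible HSP70 genes Hspa1a and Hspa1b stood out within the stress list. Heat shock proteins are chaperones whose inducible members are switched on by the factor HSF1, which binds repeated inverted GAA units. In 10 of its 14 genes the difference was at least 2-fold, always upward (median 1.42, or 0.85 with housekeeping scaling). Hspa1a, an inducible HSP70 gene, had levels of 5.82 in brain Treg and 6.98 in brain nonTreg, against -1.51, -1.61, -0.57 and -0.69 on the WT ischemic, DEREG ischemic, WT sham and DEREG sham slices. Both spleen libraries were at background. The brain T cell arrays thus lay above every other array, and the difference within the pair was 161-fold (7.33). Its near-identical copy Hspa1b gave 8.42, and the 2 probes cannot be taken as separate genes. The co-chaperones Dnajb1 (3.28), Dnaja1 (2.61) and Hsph1 (2.36) followed, although 2 other probes of Dnaja1 gave 1.14 and 0.98, then Hspe1 (2.83-fold) and Hspd1 (1.34), while Hspb1 (-0.21), Hsp90aa1 (0.15), Bag3 (0.37) and Hsf1 itself (0.39) were within 2-fold.

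The promoters of this list are shown because its inducible HSP70 genes Hspa1a and Hspa1b had the highest differences among the stress genes. Sequences are RefSeq windows of GRCm38.p6, searched over 300 bases (250 before and 50 after each annotated start) and printed up to the start; 10 genes of the list had a window. The 3-unit motif GAANNTTCNNGAA, searched on both strands, was found in a window of 3 of these 10 genes (Hspe1, Hspd1 and Hsph1) and in 198 of all 32851 windows (0.603%). Its first part, GAANNTTC, reads the same on both strands and overlaps each 3-unit match. It was found in a window of 8 of the 10 genes and in 2582 of all 32851 windows (7.86%). The list was counted by gene, some with several windows, and the background by window, so the shares are not in like units. Hspe1 and Hspd1 lie head to head and share their stretch. In the window of Hspe1, chr1:55087898-55088147 on the plus strand, capitals mark 2 overlapping 3-unit matches that begin 89 and 84 bases before the start. In that of Hspa1a, chr17:34972157-34972406 on the minus strand, capitals mark the 1 match to GAANNTTC, which begins 104 bases before the start. Over 300 bases the windows of Hspa1a and Hspa1b differ at 4. Dnajb1, with the third highest difference of the list, held neither motif, and Hspb1, which was within 2-fold, held GAANNTTC. A match describes letters and not binding.
Hspe1: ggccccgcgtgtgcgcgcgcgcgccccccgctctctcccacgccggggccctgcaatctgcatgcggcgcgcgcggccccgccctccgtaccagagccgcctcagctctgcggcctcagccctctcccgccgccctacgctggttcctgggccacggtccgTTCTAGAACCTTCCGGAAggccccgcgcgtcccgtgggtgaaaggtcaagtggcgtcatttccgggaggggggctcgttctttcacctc
Hspa1a: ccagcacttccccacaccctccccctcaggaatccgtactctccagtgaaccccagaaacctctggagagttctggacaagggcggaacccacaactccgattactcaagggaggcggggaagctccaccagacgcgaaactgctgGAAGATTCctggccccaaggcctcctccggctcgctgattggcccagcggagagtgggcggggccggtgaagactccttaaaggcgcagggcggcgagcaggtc

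Immediate early genes, which respond to stimulation within minutes, were higher in 15 of 19 members (median 2.90) and lower in 1. The phosphatase genes Dusp2 (6.75) and Dusp1 (5.04), Btg2 (4.85) and the nuclear receptor Nr4a1 (4.50) led. Fos had levels of 2.82 in brain Treg and 3.06 in brain nonTreg, -1.68 and -1.37 in spleen T cells and -0.94 on the slice. Dusp1 stood at 4.42 and 4.18 in the brain T cell libraries, 0.64 and -0.23 in the spleen ones and -0.62 on the slice. Not all members were higher: Egr1 (-0.62) and Egr2 (-0.37) were within 2-fold and Egr3 was lower (-1.36). The list's median level was 2.30 and 2.37 in the brain T cell libraries, 0.31 and -0.20 in the spleen ones, and -0.88 on the slice. The labels used here describe no handling of the cells before extraction, and the part of handling was not tested.

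Ligands and receptors of known pairs were placed side by side. Of 39 pairs 35 had both genes compared. In 11 pairs the ligand was higher on the slice and its receptor higher in Treg, the most frequent arrangement. This count depends on the choice of pairs, because many of the receptors are T cell genes described above and some genes recur. It was not set against other pairs, so it does not show that the arrangement is common. The 11 include Cd80 with Ctla4, although other Cd80 probes read higher in Treg. Il33, the ligand of ST2, was not well above background in any T cell library and stood at -0.24 on the slice, a bound of -6.22, while Il1rl1 was higher by 6.95. Il1rap, also paired with Il33, was lower in Treg (-1.01), and its other probes gave -0.02 and a bound of -2.71. Cxcl12 stood at 2.41 on the slice and -3.15 in Treg, and its receptor Cxcr4 was higher in Treg (3.34). Cxcl16 (-2.11) faced Cxcr6, Il18 (-2.90) faced Il18r1, Ccl8 (-2.70) faced Ccr8, and the sphingosine kinase gene Sphk1 (-7.58) faced the receptor S1pr1 (1.96). The reverse arrangement was seen in 1 pair, Areg in the cells and Egfr in the tissue; Egfr had a level of -6.08 in brain Treg and -0.77 on the slice.

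In 8 pairs both sides were higher in Treg, among them Il2 (at least 4.28) with Il2ra and Il2rb, Il10 with Il10ra (1.20), Ifng with Ifngr1 (2.66), Ccl1 with Ccr8, and Cd274, which encodes PD-L1 (2.50), with Pdcd1. Il2 was not well above background on any tissue array and had a dim level of -2.80 in brain Treg and -0.78 in brain nonTreg. In 4 pairs both sides were higher on the slice: Il33 with Il1rap, Il34 (-5.77) and Csf1 (-1.82) with Csf1r, and Cx3cl1 (-5.35) with Cx3cr1. Cd80 was listed lower (-2.29), facing Ctla4, but its other probes gave 3.07 and 3.62. These values place transcripts and do not show that any pair signalled.

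**Figure D5:**
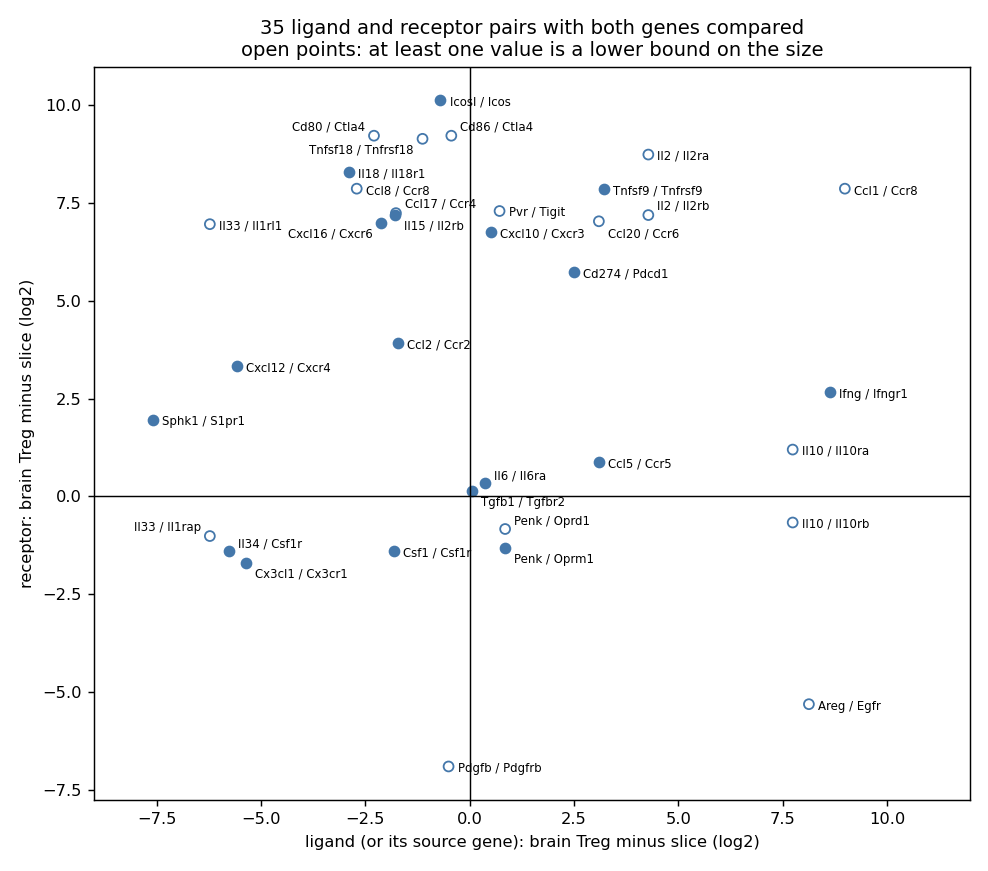
Difference (log2, brain Treg minus WT ischemic slice, 1 array each) of the ligand or its source gene (x axis) and of the receptor (y axis) for the 35 pairs with both genes compared; open points hold at least 1 lower bound on the size. Pairs with a slice-side ligand and a Treg-side receptor fill the upper left, and Areg with Egfr lies at the lower right.

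Probes of one gene mostly gave like values. There were 295 further probes of the genes described that were measured on both arrays. Of these, 219 had the same sign and were within 2-fold of the probe used, and 48 had the same sign but were more than 2-fold away. Another 8 were at least 2-fold in the opposite direction. The remaining 20 had the other sign, some of them within 2-fold of the probe used. Besides those named above, Rora, a transcription factor of tissue Treg listed at 3.27, had a probe with a bound of -2.35, and Sdc1, a plasma cell marker listed at -2.11, had a probe with a bound of 1.66. Further measured probes gave smaller sizes for Ppp1r1b (-4.73), Fgf1 (-1.54), Bcas1 (-5.06), Tnfrsf21 (-1.64), Apaf1 (1.80) and Cd3e (5.67), and a larger one for Apoe (-3.64). For 6 genes given here or counted as bounds, another probe was measured on both arrays, Dnm1, Oprl1 and Sv2c among them.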

How the data were processed

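One-colour arrays of 8 mouse RNA samples, 1 per group, were read from scanner files. Per the submitters' processing notes, the scanner software was Agilent's Feature Extraction (10.7.1.1). Per the file headers, the processed intensity is a linear, background-subtracted value; no normalization between arrays is recorded there. The signal in the series table as deposited was a constant multiple of that intensity on each array. The flag that marks spots well above background is the scanner software's own, as deposited.

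Spots of a probe were averaged with control spots left out. Flagged spots were left out too, unless every spot of the probe was flagged. Log2 values were scaled by the 75th percentile over probes well above background on both arrays. Of 56605 probes, 32994 matched 1 symbol through RefSeq accessions (GRCm38.p6 table, names only), 23611 stayed unnamed and 22911 genes had a probe. Each gene took the probe with the highest mean level of the pair. Where only 1 array was well above background, the dim side was set to its own value or to the array's minimum over probes well above background, whichever was higher. A bound that then had the wrong sign was set to 0 and kept in the list medians and counts. No test was run, because each group has 1 array. The 64 lists (23 of cell type markers and 41 of pathways, 947 symbols, 14 without a probe and 1 without a current symbol) and the members were chosen with earlier results of these data known.

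The text names the 12 top and 12 bottom measured differences, the 6 largest bounds each way, Foxp3, Cd3e, Cd4, Areg, Il1rl1, Ccr8, Ccr6, Htr7 and Ctla4, the leading, opposing and near-0 members of each list, and members of the pairs. Some genes that this rule names are not reported here. Within lists, some further members were named after their values were seen. Alternatives were normexp background correction (limma 3.58.1, offset 50; on median spot signals, since mean signals were not in the files used), 4 other scaling points, quantile normalization, 2 other filters, the median over probes, the deposited table and a 4-fold threshold. The counting was also run on simulated arrays built from the slice's own levels, with noise of the size seen between spots. It recovered nearly all genes given a change of known size. No unchanged gene was counted, an outcome fixed in advance by noise so far under 2-fold. The simulation checks the counting only and says nothing of error in the real pair.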

Additional observations from a re-analysis of the deposited data

How the results depend on the processing

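Each gene, list and count was recomputed with 1 choice changed at a time. With a 4-fold threshold 1231 genes were higher and 4050 lower. Housekeeping scaling left 1864 higher genes, and restriction to genes well above background on both arrays left 3623 lower ones. The other settings kept both counts within 1.5 times of the main ones. Of the 54 lists with a median past 2-fold, between 46 (housekeeping scaling) and 54 kept direction and size under each of the 10 settings tried on lists, and none changed direction. Normexp correction kept 47 and drew the lowest medians toward 0, astrocyte markers to -5.37 and fibroblast markers to -4.93. Of the genes named with a difference of at least 2-fold, Acta2 (-1.21), Cd80 (3.07) and Mbp (-8.11) took the other sign with the median over a gene's probes, and Oprl1 did so (1.92) when only probes well above background on both arrays were used; the probes disagree, and the cause was not tested. Named genes that took the other sign with another scaling point, quantile normalization or normexp had main differences under 1 log2 unit. The deposited table gave the same counts as the scanner files. Leaving out a replicate was not possible with 1 array a group. No paired analysis was possible because the labels give no replicate numbers and no test was run. Signal over background limits 3973 of the 16933 genes compared to bounds, set by the floor of the Treg library for 3572 genes and by that of the slice for 401.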

Other observations

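Some transcripts outside the lists and comparisons above had large differences. Calca, which encodes the neuropeptide CGRP and calcitonin, had levels of 1.11 in brain Treg and -0.44 in brain nonTreg, was not well above background in spleen T cells, and stood at -5.82 on the WT ischemic slice and -3.97 on the DEREG ischemic slice. Its difference was 6.93, and a second probe gave 3.47; it was chosen after its values were seen. Of 8 nuclear and non-coding RNAs 2 were higher and 3 lower (median -0.62), beside 19.1% higher and 36.3% lower over all genes compared. Meg3 (-10.18) and Miat (-6.91) belonged to the slice, Neat1 was lower (-1.12), and Snhg1 (1.99) and the RNase component Rmrp (1.73) were higher. The 16 genes of cholesterol synthesis showed a median of 0.33 (-0.24 with housekeeping scaling), with Insig1 (2.62) among the 4 higher and Hmgcs1 lower (-1.18). The 4 Y-linked genes with a probe were well above background on all 8 arrays (median difference 1.08, or 0.50 with housekeeping scaling) and Xist on none.

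Protein-coding genes at least 2-fold lower in Treg (5803) had a median genomic span of 27.0 kb, against 20.7 kb for the 3001 higher genes and 20.7 kb for the 6978 within 2-fold; the upper quartiles were 81.1, 45.5 and 46.3 kb. Of 967 long non-coding RNAs compared 174 were higher (18.0%) and 299 lower (30.9%), against 19.0% and 36.8% of 15782 protein-coding genes.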
